A study of Populus trichocarpa with 24 samples.

Results

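Fiber cells cut out of developing wood by laser microdissection were compared with whole differentiating xylem of black cottonwood (Populus trichocarpa), as 3 fiber libraries against 3 xylem libraries among the 24 libraries of the series. The members were taken by their titles and not by any measured value. All material in this comparison came from trees grown for 6 months in a greenhouse under long days. The xylem libraries hold RNA scraped from the surface of debarked stems, without amplification. The fiber libraries hold RNA of captured fiber cells that was amplified with the RiboAmp HS PLUS kit before library preparation. Amplification, capture and cell type therefore differ together between the groups and cannot be told apart in this comparison. A mixture of captured fiber, vessel and ray cells (3 libraries, called the mix) was amplified in the same way and is given beside the results as an amplified reference. The labels tie no library to a tree and say neither how fibers were recognised nor how many cells or trees a capture holds, so a p-value reflects the spread among the samples at hand, and that spread may be technical.

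Wood fibers are the long cells that carry a stem's weight. They lay down a thick secondary wall of cellulose, xylan and lignin inside the primary wall and then die. Vessel cells form the water-conducting tubes and make a similar wall, while ray cells stay alive longer and move sugars across the stem. In Arabidopsis and poplar, NAC regulators of the SND1 and NST types are known for switching on the wall program of fibers, those of the VND type for vessels, and a small group of MYB factors acts below both.

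Gene groups were followed with 6 lists of 66 loci in 18 types. The deposited table gives locus identifiers and no names, and the reference table matched 0 of its 41335 identifiers. Membership of the lists therefore rests on published poplar nomenclature as recalled and could not be checked here, and each list is described without naming its loci. Lists of product names, which held the markers of phloem, green, cambial, vessel and parenchyma cells, could not be applied. Levels are CPM, the library's counts put on a common total and scaled by TMM over the 9 fiber, mix and xylem libraries. They are not divided by gene length, so the levels of different loci are not compared in a strict sense.

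The fiber libraries held 8317935 to 10428268 counts and the xylem libraries 12201511 to 19220147. At an equal depth of 8317935 counts, 20593 ± 1141 loci (SD, n = 3) were detected in fiber, 26941 ± 1049 in the mix and 30517 ± 289 in xylem. The fiber libraries also resembled each other less. Their biological coefficient of variation was 89.2%, against 43.3% in the mix and 24.4% in xylem. Pearson correlations across 23995 loci, which are not independent replicates, ran from 0.77 to 0.82 within fiber and from 0.96 to 0.98 within xylem. Fiber replicate 3 was the farthest from the other fiber libraries, at 0.77 with both. In a bulk library, fewer cells of a type and less RNA per cell cannot be told apart.

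Of 23735 loci tested, 5206 were called different between fiber captures and xylem tissue (21.9%), by edgeR's quasi-likelihood test. A call needed a p below 0.05 after Benjamini-Hochberg adjustment and a log2 fold of 1 or more in either direction. In fiber 1519 loci were higher (6.4%) and 3687 lower (15.5%). The median log2 fold of all tested loci was -0.22. When loci had to reach 10 CPM in 3 libraries, 1493 were higher and 1404 lower, and the median was 0.03. Fiber libraries all lay above all xylem libraries at 14.8% of tested loci and all lay below them at 33.2%. The number of calls rested on the xylem libraries: it was 302 without xylem replicate 1, 2242 without xylem replicate 2 and 207 without xylem replicate 3, against 7665, 7803 and 8060 without fiber replicates 1, 2 and 3. Without xylem replicate 1 or 3, only 1 of the 66 listed loci, of the MYB list, was still called, against 16 with all libraries. The values of each library are therefore given below beside the calls.

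The cellulose synthases of the secondary wall, the enzymes that spin the cellulose of wood, had a summed level in captured fibers of 0.97 times that in xylem tissue, a difference within the spread of the libraries. Their 5 loci summed to 10944, 7321 and 9027 CPM in the fiber libraries and to 10198, 10460 and 7461 CPM in the xylem libraries, so that the groups overlapped (exact permutation test, two-sided, p = 0.9). The amplified mix was far lower, at 2677, 2261 and 2470 CPM, below every fiber and every xylem library. With 3 libraries against 3 the smallest p that the permutation test allows is 0.1, which fiber against mix reached.

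**Figure D1:**
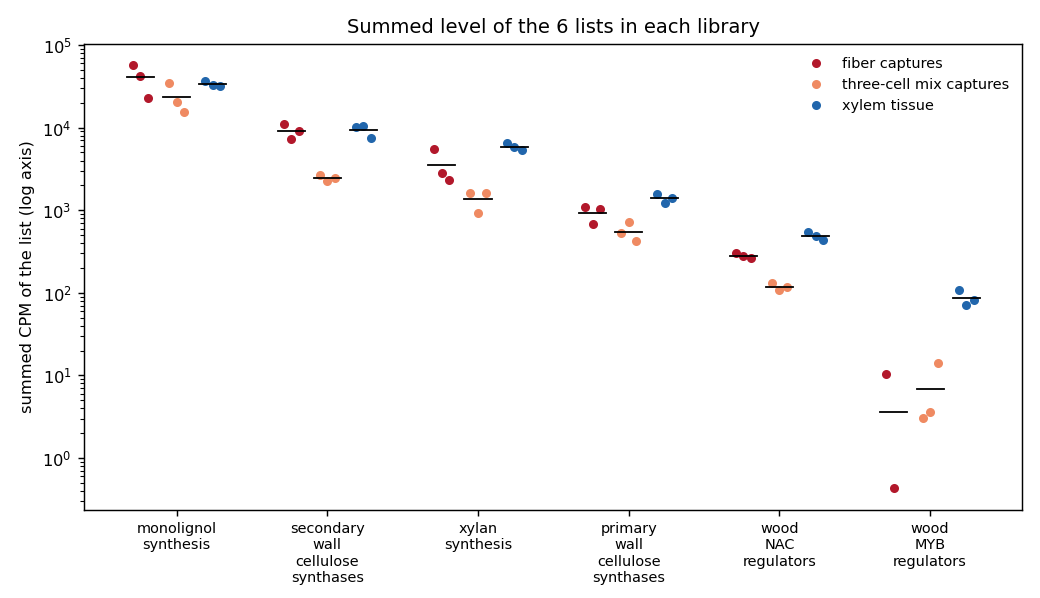
Summed CPM of each of the 6 lists (log axis) in each of the 9 libraries, with 1 point per library and a black line at the mean of the 3. Fiber captures and xylem tissue overlap for monolignol synthesis, secondary wall cellulose synthases and xylan synthesis. The primary wall cellulose synthase, NAC and MYB lists are lower in every fiber library than in every xylem library. Fiber replicate 3 has 0 CPM for the MYB list and cannot be drawn on the log axis.

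Loci within this small family differed in direction. The more abundant of the 2 CesA8-type loci had 3591, 3521 and 5249 CPM in fiber against 2413, 2202 and 1940 CPM in xylem, with every fiber library above every xylem library. Its log2 fold was 0.91 ± 0.25 (SE, edgeR adjusted p = 0.042), short of the fold of 1 needed for a call. The other CesA8-type locus had 167, 240 and 124 CPM in fiber against 657, 458 and 469 CPM in xylem, and was called lower (log2 fold -1.57 ± 0.31, edgeR adjusted p = 0.014). The single CesA4-type locus ranged from 981 to 3088 CPM in fiber and from 2348 to 3485 CPM in xylem and was not called (log2 fold -0.79 ± 0.47). The 2 CesA7-type loci had log2 folds of -0.07 and -0.61 and were not called either.

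Against the mix, in which both sides were amplified, all 5 secondary wall cellulose synthases had positive log2 folds of 1.33 to 2.20, and 2 were called higher in fiber, beside 0.476% of all 21652 loci tested (0.979% in either direction). These were the leading CesA8-type locus (log2 fold 2.15 ± 0.34) and the leading CesA7-type locus (2.20 ± 0.35), both with an edgeR adjusted p of 0.043. Both lie in the range of 1000 CPM or more. In that range 12% of loci were called higher than in the mix and 5.33% lower, and the median log2 fold was 0.82. Over all loci 103 were higher and 109 lower in fiber than in the mix. The balance of directions depended on the fit. Lower calls prevailed with 771 higher and 1375 lower by DESeq2, 354 and 832 by limma voom, and 702 and 1860 in a single edgeR fit of the 9 libraries. It was nearly even in edgeR with DESeq2 size factors (101 and 111), without a filter (165 and 171) and with a replicate block (58 and 65). With at least 10 CPM in 3 libraries 194 were higher and 165 lower. The edgeR count of 212 fell to 0 without fiber replicate 1 or any 1 of the mix libraries and to 14 without fiber replicate 3.

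Genes of monolignol synthesis, which make the precursors of lignin, showed no common direction between fiber and xylem. Of the 22 loci 3 were called higher in fiber, 1 was called lower, and the median log2 fold was -0.18. Among all tested loci 6.4% were called higher and 15.5% lower, and the median was -0.22, which includes many scarce loci. All 22 lie in the ranges of 100 CPM or more. There 20.8% to 33.3% of loci were called higher and 8% to 11.9% lower, depending on the range. The medians of these ranges were 0.33 to 0.46, above that of the list. The list summed to 57113, 41735 and 22605 CPM in fiber and to 36813, 32432 and 32209 CPM in xylem. Fiber replicates 1 and 2 lay above all xylem libraries and fiber replicate 3 below them, so the groups overlapped (exact permutation test, two-sided, p = 0.7). Without fiber replicate 1 the median was -0.41, with 2 loci called higher and 5 lower. Without fiber replicate 2 it was -0.23, with 2 higher and 1 lower, and without fiber replicate 3 it was 0.01, with 4 higher and 1 lower. The median of all loci was -0.34, -0.41 and -0.33 in the same fits.

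Phenylalanine ammonia-lyase, which takes phenylalanine into the pathway, is represented by 5 loci. The leading one had 9583, 9058 and 3221 CPM in fiber against 1287, 1593 and 1046 CPM in xylem, and every fiber library lay above every xylem library. It was called higher in fiber (log2 fold 2.48 ± 0.47, edgeR adjusted p = 0.013). Another was also called higher, with 2353 ± 837 CPM in fiber and 936 ± 132 CPM in xylem (SD, n = 3) and a log2 fold of 1.33 ± 0.34. The 2 loci at the other end had log2 folds of -0.72 and -1.11 and were not called, although every fiber library lay below every xylem library.

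Among the next enzymes, 1 of the 2 loci for 4-coumarate CoA ligase, which activates the acid precursors, was called higher in fiber. It had 1015 ± 480 CPM in fiber and 288 ± 70.1 CPM in xylem (SD, n = 3). Its log2 fold was 1.82 ± 0.42 (edgeR adjusted p = 0.023). No locus was called among the 3 cinnamate and coumarate hydroxylases, the 4 loci of shikimate ester metabolism, the 3 caffeoyl-CoA methyltransferases and the 2 monolignol reductases. Their log2 folds ran from -1.19 to 1.02. The sums of these types in fiber were 0.78 to 1.16 times those in xylem.

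**Figure D2:**
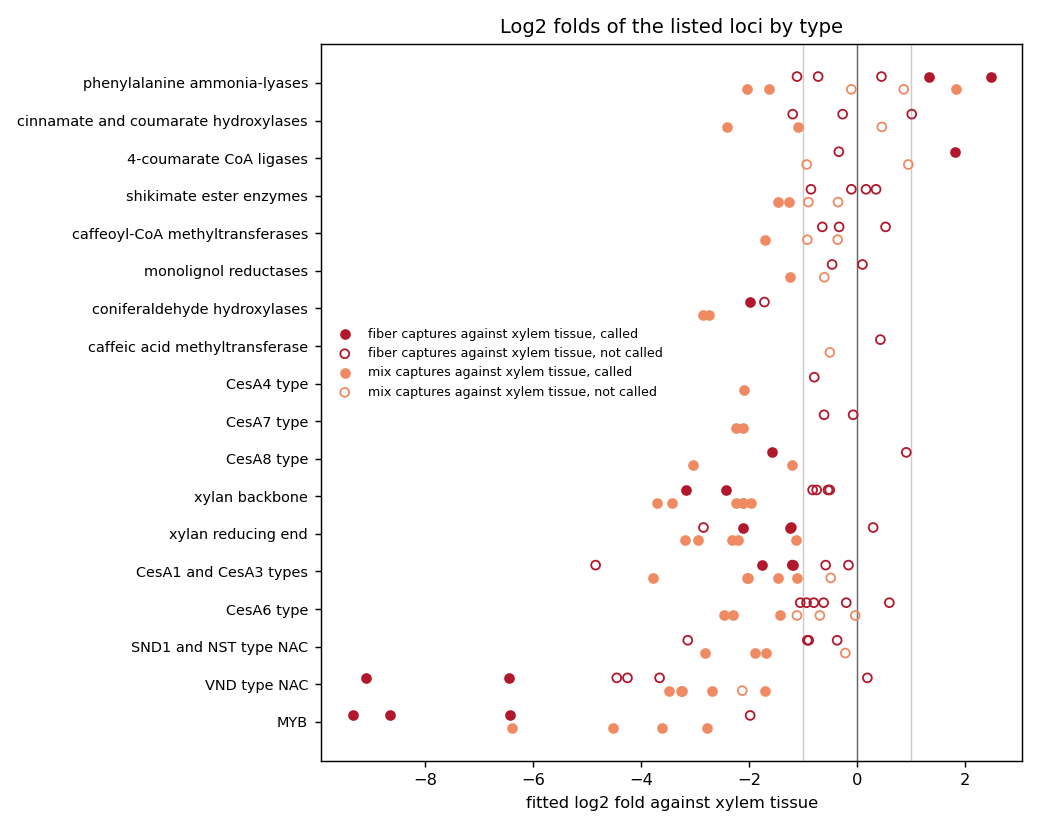
Fitted log2 folds of the listed loci against xylem tissue, for fiber captures (dark red) and mix captures (orange), 1 row per type. Filled points were called and open points were not, where a call needs both the adjusted p and the fold of 1. Both comparisons use the same xylem libraries. Coniferaldehyde hydroxylases lie to the left in both, and folds beyond -8 belong to loci with at most 2 counts in the fiber libraries together.

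The coniferaldehyde hydroxylases, which direct the pathway to syringyl lignin, were the exception on the low side. Their 2 loci summed to 1449, 792 and 443 CPM in fiber against 3529, 3068 and 3176 CPM in xylem, with no overlap (exact permutation test, two-sided, p = 0.1). Of the 2 loci 1 was called lower (log2 fold -1.98 ± 0.37, edgeR adjusted p = 0.012), and the other had -1.71 ± 0.52 (edgeR adjusted p = 0.062). The mix was also low, at 577, 338 and 450 CPM. The caffeic acid methyltransferase locus, which acts on the same branch, had the highest mean CPM of all loci in fiber. Its 13444, 6653 and 4904 CPM in fiber overlapped the 7421, 4647 and 6490 CPM in xylem, and it was not called (log2 fold 0.44 ± 0.42).

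Against the amplified mix, all 22 monolignol loci had positive log2 folds, from 0.50 to 1.25 with a median of 0.88, but none was called by edgeR. Abundant loci in general lay above 0 in this comparison, with medians of 0.53 at 300 to 1000 CPM and 0.82 at 1000 CPM or more. Between the mix and xylem tissue 1 monolignol locus was called higher and 10 were called lower, where 16.9% of all loci were called higher and 21.1% lower (37.9% in all). The fiber and mix comparisons share the xylem libraries, and those of fiber with xylem and with the mix share the fiber libraries, so these values are not independent of each other.

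Xylan, the main hemicellulose of poplar wood, is built by glycosyltransferases of its backbone and of its reducing end. Of the 11 loci 4 were called lower in fiber than in xylem tissue and none higher, beside 15.5% lower and 6.4% higher among all loci. Their median log2 fold was -1.21, against -0.22 over all loci. In the ranges from 30 to 1000 CPM, where all 11 lie, the medians were 0.21 to 0.34. There 9.17% to 11.9% of loci were called lower and 12.6% to 25.5% higher. The list summed to 5564, 2849 and 2297 CPM in fiber and to 6479, 5866 and 5355 CPM in xylem. Fiber replicate 1 lay within the range of the xylem libraries, while the other two lay below it. The called loci were not the most abundant ones: the 3 backbone loci and the 2 reducing-end loci with the highest levels in xylem were not called. Of the 6 backbone loci, 1 had 87.9 ± 33.2 CPM in fiber and 473 ± 66.2 CPM in xylem (SD, n = 3), and was called lower (log2 fold -2.43 ± 0.32, edgeR adjusted p = 0.0084). The backbone locus with the highest level had 778 ± 213 and 1105 ± 149 CPM and a log2 fold of -0.50 ± 0.26, and was not called. All 11 loci were called lower in the mix than in xylem, as were 21.1% of all loci. Against the mix all 11 had positive log2 folds in fiber, from 0.37 to 1.64, and none was called.

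Cellulose synthases of the primary wall, which work while a cell still expands, were called lower about as often as all tested loci. Their median log2 fold was -0.87, however, against -0.22 over all loci. In the ranges from 3 to 300 CPM, where the 12 loci lie, the medians ran from -0.67 to 0.33. There 6.92% to 11.6% of loci were called lower. At 7 loci every fiber library lay below every xylem library, as at 33.2% of all loci. The list summed to 1090, 676 and 1028 CPM in fiber and to 1576, 1222 and 1390 CPM in xylem, without overlap. In the mix 8 loci were called lower than in xylem, beside 21.1% of all loci. Of 12 loci 2 were called lower and none higher, beside 15.5% and 6.4% of all loci. Both were of the CesA1 and CesA3 types, and they had log2 folds of -1.75 ± 0.50 and -1.18 ± 0.33 and edgeR adjusted p-values of 0.048 each. The 6 loci of these types summed to 410, 329 and 350 CPM in fiber against 821, 646 and 724 CPM in xylem, without overlap. The 6 CesA6-type loci held no call, and their sums of 679, 347 and 679 CPM in fiber overlapped the 756, 576 and 667 CPM in xylem.

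Among regulators of the wall program, some loci overlapped between fiber and xylem and others were close to 0 in fiber. Of the 4 SND1 and NST type NAC loci none was called. The leading one had 122, 87.7 and 138 CPM in fiber and 144, 168 and 136 CPM in xylem, which overlap, with a log2 fold of -0.37 ± 0.24. The next had 28.1, 14.1 and 0.595 CPM in fiber against 153, 106 and 117 CPM in xylem. All its fiber libraries lay below all xylem libraries, but with so wide a spread in fiber the log2 fold of -3.13 ± 1.07 was not called (edgeR adjusted p = 0.087). Fiber replicate 3 held 6, 2 and 25 counts of the 3 minor loci of this type, far fewer than the other fiber libraries.

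VND type loci, the group known for vessels, showed the widest range. One of the 8 had 121, 140 and 120 CPM in fiber against 112, 123 and 97.3 CPM in xylem, and its log2 fold of 0.19 ± 0.21 was not called. The 5 other tested loci reached 4.62 to 27.7 CPM in the xylem libraries and at most 3.42 CPM in any fiber library, and all 5 had every fiber library below every xylem library. Over all tested loci, 33.2% had every fiber library below every xylem library and 15.5% were called lower. In the ranges of 1 to 3 and 3 to 10 CPM (mean over fiber, mix and xylem), where these 5 loci lie, 39.96% and 11.6% were called lower. Of the 5 loci, 2 were called lower. One had no count in any fiber library against 6.81, 5.64 and 4.70 CPM in xylem. Taking 3 counts over the fiber group as the floor, it was at least 51.2-fold lower in fiber, a bound that covers counting error only. The other had 4 counts in fiber replicate 1 and none in the other two, against 17.4, 16.0 and 13.03 CPM in xylem (log2 fold -6.45 ± 1.59, edgeR adjusted p = 0.03). The remaining 2 VND type loci had at most 15 counts in any of the fiber, mix and xylem libraries and were not tested.

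Of the 4 MYB loci, 3 had between 0 and 4 counts in the fiber libraries together. All 4 loci together summed to 10.3, 0.428 and 0 CPM in the fiber libraries and to 109, 71.4 and 82.2 CPM in the xylem libraries. The most abundant one had 69.0, 43.0 and 58.2 CPM in xylem and 2, 0 and 0 counts in fiber. Its level in xylem was 779 times that in fiber, with a 95% interval of 216 to 6437 that covers counting error only, and it was called lower (edgeR adjusted p = 0.0049). Of the other 3, 2 were called lower. One of these had no fiber count and was at least 37.5-fold lower, again with 3 counts over the fiber group as the floor and for counting error only. The other had 4 fiber counts and a log2 fold of -6.42 ± 1.59. The locus without a call had 75 counts (10.1 CPM) in fiber replicate 1, most of the list's sum there, and none in the other fiber libraries. Among all tested loci 15.5% were called lower, with 39.96% at a mean of 1 to 3 CPM, 11.6% at 3 to 10 CPM and 6.92% at 10 to 30 CPM. The median log2 fold of the list was -7.53 as fitted and -5.82 with the absent locus at its bound.

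Absence from a fiber library was common among scarce loci and rare among abundant ones. At equal depth, 16638 loci had at least 5 CPM in every xylem library. Of these, 2.12% were undetected in all fiber libraries and 0.126% in all mix libraries, while 84.4% and 98.2% were detected in all 3. Among the 8199 loci with at least 20 CPM in every xylem library, which include the leading MYB locus, 0.512% were undetected in all 3 fiber libraries and 99 more loci were seen in just 1. In the mix, the MYB list summed to 3.02, 3.63 and 14.1 CPM and all 4 loci were called lower than in xylem, as were 21.1% of all loci. No locus without a xylem count had at least 5 CPM in every fiber library.

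The share of loci called in each direction differed with abundance. Among loci with a mean of 1 to 3 CPM over the fiber, mix and xylem libraries, 39.96% were called lower and 0.205% higher in fiber. In the range of 100 to 300 CPM the shares were 10.1% lower and 20.8% higher, and among the 75 loci of 1000 CPM or more they were 8% and 33.3%. In the mix against xylem 25.1% were called lower and 10.2% higher in the lowest range. From 10 to 300 CPM slightly more loci were called higher (18.3% to 20.9%) than lower (17.2% to 18.7%), and at 1000 CPM or more 33.3% were lower and 20% higher. The within-group SD of log2(CPM + 1) at 3 to 10 CPM had a median of 1.30 in fiber, 0.45 in the mix and 0.23 in xylem. Of the NAC and MYB loci described above, those called lower lay in the ranges under 30 CPM, and their part in the abundance pattern was not tested.

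**Figure D3:**
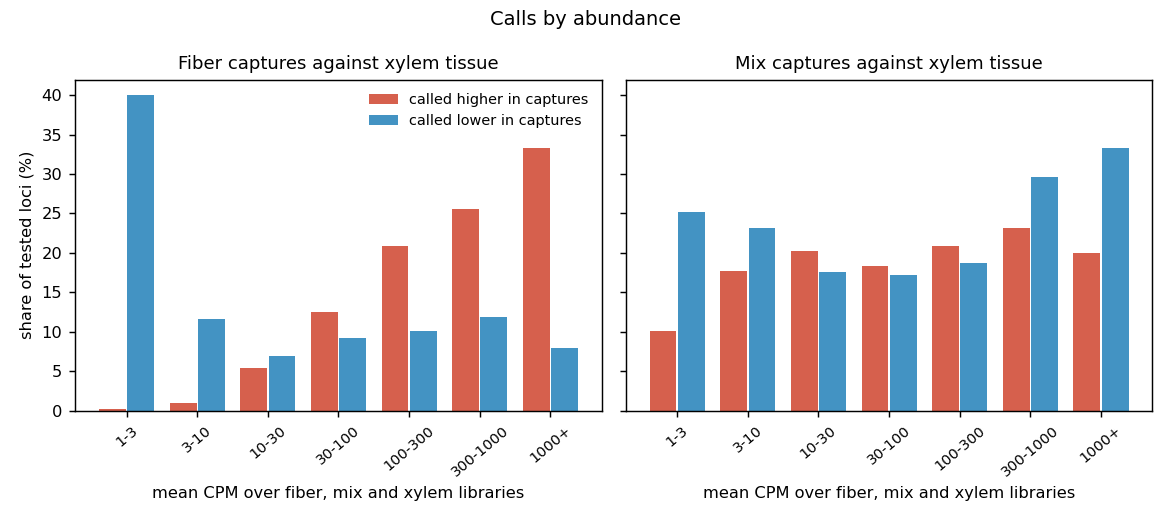
Share of tested loci called higher (red) or lower (blue) in captures than in xylem tissue, by mean CPM over the fiber, mix and xylem libraries, for fiber (left) and mix (right). In fiber the share called lower is 39.96% at 1 to 3 CPM and the share called higher is 33.3% at 1000 CPM or more.

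Loci of one enzyme type were balanced differently in captures and tissue, and this balance does not depend on how libraries are scaled. The leading phenylalanine ammonia-lyase locus held 59.6%, 60.5% and 54.1% of its type's summed CPM in fiber and 20.9%, 28.8% and 20.9% in xylem. In the mix it held 62.5%, 50.8% and 56.1%, close to fiber. The leading locus of the hydroxylases held 56.4% ± 2.09 in fiber (SD, n = 3), 61.8% ± 6.67 in the mix and 28.4% ± 0.898 in xylem. For 4-coumarate CoA ligase the order was the opposite, with 51.5% ± 5.60 in fiber, 57.5% ± 6.52 in the mix and 81.6% ± 6.55 in xylem. Of the CesA8-type transcript, the leading locus held 95.6% ± 2.04 in fiber, 92.9% ± 4.02 in the mix and 80.6% ± 2.09 in xylem.

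The leading locus is the one with the highest mean level over the fiber, mix and xylem groups. Both capture groups enter this choice, which favours loci that are high in captures, so the shares and their tests are not independent of it. In xylem itself another phenylalanine ammonia-lyase was higher (1410 against 1309 CPM), as was another hydroxylase (2259 against 1583 CPM). In 9 of the 15 types with several loci and enough counts the leading locus's share did not overlap between fiber and xylem. No such share was computed for other groups of loci, so this count has no background of its own. In level, 14.8% of all tested loci had every fiber library above every xylem library and 33.2% had every one below. In each of the 4 types above fiber and xylem libraries did not overlap, with the smallest exact permutation p of 0.1, while fiber and mix did overlap (p = 0.3 to 0.7, two-sided). The shares of both NAC types and of the CesA7 type differed from the mix as well. The leading SND1 and NST type locus held 69.6%, 66.6% and 97.7% of its type's CPM in fiber, 49.9%, 63.8% and 37.1% in the mix and 42.1%, 55.2% and 47.6% in xylem. The leading VND type locus held 97.2%, 97.2% and 100% in fiber, 78.3%, 88.8% and 77.0% in the mix and 57.2%, 69.1% and 63.0% in xylem. The leading CesA7-type locus held 67.3%, 66.6% and 80.7% in fiber, 57.8% to 64.4% in the mix and 62.6% to 63.4% in xylem. For these 3 types all fiber libraries lay above all mix and all xylem libraries (exact permutation test, two-sided, p = 0.1 each). The minor NAC loci were scarce in fiber, and fiber replicate 3 held 6, 2 and 25 counts of the SND1 and NST type ones. Of loci with at least 5 CPM in every xylem library, 84.4% were detected in all 3 fiber libraries and 98.2% in all 3 mix libraries. The part of such missed detection in the NAC shares was not tested. Reads of near-identical copies may have been divided between loci in a way that the deposited counts do not show.

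**Figure D4:**
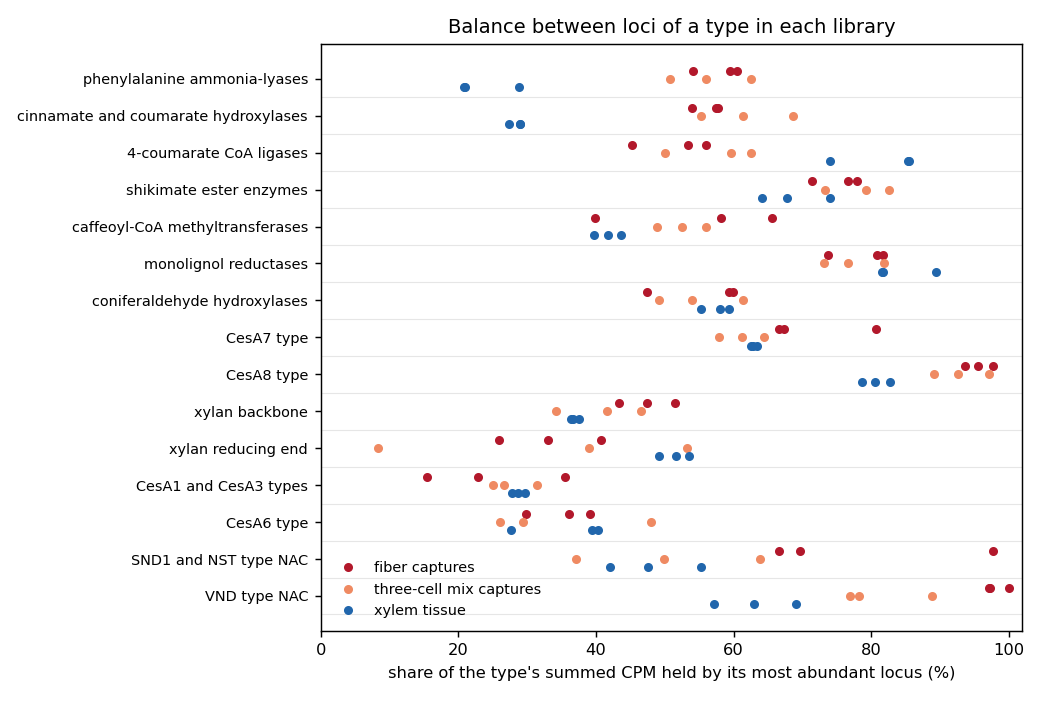
Share of a type's summed CPM held by its most abundant locus, in percent, with 1 point per library for fiber captures, mix captures and xylem tissue. For phenylalanine ammonia-lyases, hydroxylases and CesA8-type loci both captures lie to the right of xylem tissue, while for SND1 and NST type and VND type NAC loci fiber lies to the right of both.

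The most abundant loci of captured fibers were in part those of xylem tissue. Of the 20 loci with the highest mean CPM in fiber, 8 were among the 20 highest of xylem and 10 among the 20 highest of the mix, and of the 500 highest 291 and 319 were shared in the same way. The lists contributed 4 of the 20, namely 3 monolignol loci and the leading CesA8-type locus. Of the 20 loci 8 were called higher in fiber than in xylem and 0 lower, a direction that choosing loci by their fiber level favours. Among all tested loci of 1000 CPM or more, 33.3% were called higher and 8% lower.

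Loci high in other tissues were also followed. They were defined without any library of this comparison, as higher in 1 of shoot tip, leaf, phloem and root than in each of the other 3, by edgeR's test on those 12 libraries. Since xylem took no part in the definition, the sets can hold genes that xylem also expresses. Loci high in phloem were lower in fiber captures, with a median log2 fold of -1.24 over 1013 tested loci. Of these, 28.9% were called lower and 5.33% higher, beside 15.5% and 6.4% of all loci. In the mix 39.7% of the phloem-high loci were called lower, beside 21.1% of all loci. Loci high in leaf (1769 tested) and in root (2216 tested) had medians of 0.01 and 0.02 in fiber, with 11.9% and 13.99% called lower. These 2 medians fell below 0 when any 1 fiber library was left out, to between -0.07 and -0.28. The median of all loci also fell in those fits, from -0.22 to between -0.33 and -0.41. The 132 tested loci high in shoot tip had a median of -0.65, with 21.2% called lower.

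In summed level the same sets gave a different picture. Phloem-high loci together had 52203 to 58473 CPM in the fiber libraries and 70788 to 73132 CPM in the xylem libraries. Root-high loci together had 91761 to 103200 CPM in fiber and 57207 to 73259 CPM in xylem, with the mix at 80772 to 111388 CPM. Leaf-high loci had 40592 to 42740 CPM in fiber and 30907 to 35368 CPM in xylem. In these 3 sums fiber and xylem libraries did not overlap. With sets limited to a log2 fold of at least 3 over the other tissues, the median of the phloem-high loci was -2.75, while their sums overlapped, at 3409 to 7019 CPM in fiber and 3453 to 4145 CPM in xylem. Sums of such leaf-high loci overlapped too, at 3602 to 4483 CPM in fiber and 3949 to 5096 CPM in xylem, with a median of -0.49. Those of such root-high loci did not, at 11885 to 15728 CPM in fiber and 4581 to 5570 CPM in xylem, with a median of -0.09. The part of other cells in these values was not tested, and that of amplification cannot be told apart.

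**Figure D5:**
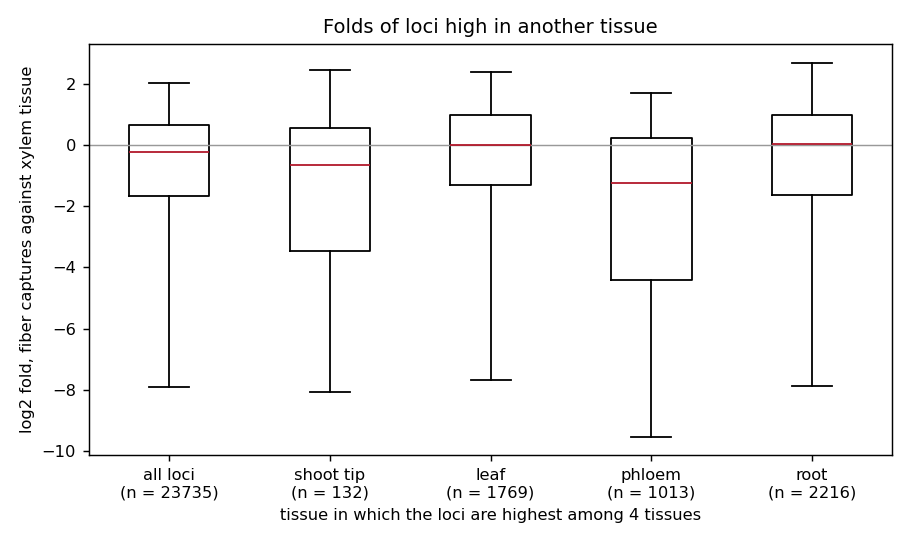
Log2 folds of fiber captures against xylem tissue for all tested loci and for loci higher in 1 of 4 other tissues than in the other 3; boxes span the quartiles, whiskers the 5th to 95th percentiles and the red line marks the median. Loci high in phloem have the lowest median, at -1.24, and those high in leaf and root lie near 0.

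The strongest single loci are given by identifier alone. Of the 1000 loci called higher that reached 50 CPM in fiber without overlap of libraries, Potri.014G182000 had the largest fold. It had 251, 98.2 and 214 CPM in fiber and 0.106, 0.5 and 0.33 CPM in xylem (log2 fold 9.24 ± 0.71, edgeR adjusted p = 0.0035). In the mix it ranged from 5.50 to 171 CPM. Potri.002G022600 followed, with 243, 311 and 201 CPM in fiber, at most 0.851 CPM in xylem and 40.5 to 215 CPM in the mix. Among 785 such loci with at least 50 CPM in xylem, Potri.019G049200 had 130, 165 and 133 CPM in xylem and no count in fiber, at least 1278-fold lower with 3 counts over the fiber group as the floor. Potri.012G071100 had 111, 92.9 and 97.7 CPM in xylem and no fiber count, at least 901-fold lower, and 1.88 to 13.5 CPM in the mix. Both bounds cover counting error only. All 4 were called in the same direction between the mix and xylem tissue, and none was called between fiber and the mix, where 3 were tested.

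A difference from tissue that is also found against an amplified capture was sought by requiring the same direction against xylem and against the mix. On the largest of both p-values, adjusted over the 20787 loci tested in both, edgeR called 0 loci, and the smallest adjusted p was 0.19. At an unadjusted p below 0.05 and a log2 fold of at least 1 in both, 1393 loci passed, 454 higher and 939 lower in fiber. DESeq2 called 647 loci and limma voom with sample weights 0, while a single edgeR fit of the fiber, mix and xylem libraries called 933.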

How the data were processed

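Whole-number read counts per locus, not normalized, were deposited by the authors in 1 table. TopHat, without a version, is named per the submitters' processing notes. Counting tool, build, annotation and strand setting: not given in the sources used here. Each of the 24 columns matched 1 sample title, and 0 columns and 0 lines were left over. Groups follow the titles.

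Tests used edgeR 4.0.16 under R 4.3.3, with DESeq2 1.42.0 and limma 3.58.1 as alternatives. Plots came from matplotlib 3.10.9 under Python 3.11.15. Low-count loci were removed with filterByExpr, libraries were scaled by TMM, and each comparison was fitted on its 6 libraries with the robust quasi-likelihood test, without a block. A standard error is the size of the log2 fold over the root of its F statistic. Correlations between libraries used log2(CPM + 1) of loci with a mean of at least 1 CPM. Printed CPM use 1 TMM scale over 9 libraries. A fold against a group without counts was bounded with 3 counts over the group, and the interval of a ratio is a 95% exact binomial one. Both cover counting error and not the spread between libraries. Sums were compared with exact permutation tests. The method was tested on simulated data in which fiber and xylem had the same spread. The real groups differ in spread, so that test does not cover this feature of the data. Replicates differed by more than sampling noise (chi-square per degree of freedom 18.5 to 115.3) and none was merged. Depth ran from 8317935 to 19220147 counts.

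The members and lists were chosen with earlier results of these data known, and the division into 18 types and the CPM ranges were added after seeing the data. The rule for named genes asked for members of the lists and for the strongest loci with a reference name. As no reference named any locus, lists are described as groups and 2 identifiers in each direction are printed. Length and GC content were not used here because 0 identifiers matched. Alternatives were other scalings, tools, filters, fits, thinned counts, a replicate block and leaving out each library.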

Additional observations from a re-analysis of the deposited data

How the results depend on the processing

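The count of loci different between fiber and xylem stayed within 1.5 times of 5206 with DESeq2, with other scalings, without a filter, with thinned counts, with limma voom, in a fit of 9 libraries and at a log2 fold of at least 2. It was 2897 (1493 higher, 1404 lower) with at least 10 CPM in 3 libraries, 8786 in 1 fit of all 24 libraries, and 207 to 8060 when 1 library was left out. Against the mix, the count of 212 became 2146 with DESeq2, 336 without a filter, 359 with at least 10 CPM in 3 libraries, 2562 in a fit of 9 libraries and 1186 with limma voom, and 0 to 158 with 1 library left out. Mix against xylem gave 9576, and 6082 with at least 10 CPM in 3 libraries and 3817 in a fit of 9 libraries. Loci apart from both xylem and mix were 0, but 647 with DESeq2, 933 in a fit of 9 libraries and 1393 at the unadjusted p. Of the 66 listed loci 16 were called, 26 with DESeq2 and 1 to 27 with 1 library left out. The cause of these changes was not tested. For 20 called loci 317 alternative values were computed, of which 59 lost the call and 0 changed sign.

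Whether replicate numbers pair the libraries could not be settled. Deviations of same-numbered fiber and xylem libraries correlated at only 0.01 to 0.03, although each fiber library correlated best with its own number. The same values were 0.001 to 0.07 between fiber and the mix and 0.05 to 0.15 between the mix and xylem. With a replicate block 1935 loci were called between fiber and xylem, 123 between fiber and the mix, 0 apart from both, and 14 of the listed loci, with 0 of the NAC list and 1 of the MYB list.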

Other observations

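Captured vessel cells, which belong to no comparison above, were also low in the MYB loci, with sums of 5.84, 39.1 and 2.10 CPM on unscaled library totals, against 9.26, 0.418 and 0 CPM in fiber and 107, 73.1 and 81.6 CPM in xylem tissue on the same scale. VND type NAC loci summed to 53.1, 110 and 13.3 CPM in the vessel libraries and to 111, 140 and 116 CPM in the fiber libraries on unscaled totals. In fiber 1 locus carried 97.2% to 100% of that sum, and the other VND type loci were not compared with the vessel libraries. CesA8-type loci summed to 315, 687 and 480 CPM in the vessel libraries against 3361, 3670 and 5196 CPM in fiber. Vessel replicate 2 was the highest of the vessel libraries for all of these.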
